A study of Homo sapiens with 3 samples.

Results

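Imprinted genes, which are expressed only or mainly from the maternal or the paternal copy, were examined in SKOV-3 ovarian cancer cells depleted of the histone methyltransferase G9a. The set holds 37 genes taken by gene symbol. For some of its members the expressed copy depends on tissue, isoform or species, or is debated. The rule itself uses no measured value, but the members were chosen with earlier results of these data known. Of these, 35 had at least 1 probe set that is annotated to no other gene, out of 19775 genes with such a probe set on the array. H19 and IGF2 were left without a value, because all of their probe sets carry several gene symbols. SKOV-3 is an established ovarian cancer cell line, and its cells carried a stable G9a shRNA1, G9a shRNA2 or Luc shRNA, the last directed at luciferase and used as the control. All 3 populations received the shRNA by lentivirus and were kept in puromycin for 2 weeks, so the control shares infection and selection, and each is a selected population of 1 cell line. Each population was measured on 1 Affymetrix array. There are therefore no replicates, no test across replicates was made, and differences are given as log2 ratios of a G9a shRNA array to the control array, without an error or a p-value.

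Imprinting is set in the germ line, where DNA methylation is placed on control regions of one parental copy. In the embryo and later these marks are kept through cell division by DNMT1 and by zinc finger proteins such as ZFP57 and ZNF445, which read a methylated motif and bring in TRIM28 and the H3K9 methyltransferase SETDB1. Some imprinted clusters also carry a long noncoding RNA, such as KCNQ1OT1, that silences its neighbours in cis. In mouse placenta G9a, which places H3K9 dimethylation, takes part in this silencing of neighbours. Many imprinted genes act on growth of the fetus and placenta, on metabolism and on the nervous system, and several of them are lost or gained in ovarian cancer.

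The knockdown was visible at the brightest EHMT2 probe set. EHMT2, which encodes G9a, had a signal of 29.7 under G9a shRNA1 and 79.2 under G9a shRNA2, against 182 under Luc shRNA. A dimmer EHMT2 probe set gave log2 ratios of -0.21 and -0.75, and the remaining one was not detected. With all 3 averaged, the undetected one included, the ratios were -0.95 and 0.03, against -2.62 and -1.20 at the brightest. Among 9 markers of epithelial ovarian cancer cells, 7 were detected, among them KRT8, KRT18, EPCAM, PAX8 and ERBB2, whereas MUC16 and MSLN were under the detection level on all 3 arrays. The summed signal of the 9 was 8247 with G9a shRNA1 and 9439 with G9a shRNA2, against 6942 with Luc shRNA. None of the leukocyte and hepatocyte markers was detected. Of the placental and germ cell markers, CGA, DDX4 and DAZL were not detected. PSG1, one of a family of near-identical placental genes that probes may not tell apart, was the exception. It had signals of 224 and 337 with the 2 G9a shRNAs and of 128 with Luc shRNA, and its part in the results was not tested. In bulk RNA, fewer cells of a type and less RNA per cell cannot be told apart. The control probe sets for β-actin had a 3′ signal over 5′ signal of 1.83 on the G9a shRNA1 array and 1.47 on the G9a shRNA2 array, against 3.68 on the Luc shRNA array. For GAPDH the same measure was 1.12 and 1.14, against 1.15 on the Luc shRNA array. The part of the β-actin difference in the ratios below was not tested.

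A gene was called detected when its brightest probe set reached the median of all values, 12, on at least 1 array. By this measure 22 of the 35 imprinted genes were detected (62.9%), against 66.7% of all genes. Of the 13 that were not detected, 11 are genes of the paternal copy. Of 18 genes known for paternal expression 7 were detected, of 4 genes known for maternal expression 3 were detected, and of 13 genes whose allele depends on tissue, isoform or species, or is debated, 12 were detected. No test was made of this difference.

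**Figure D1:**
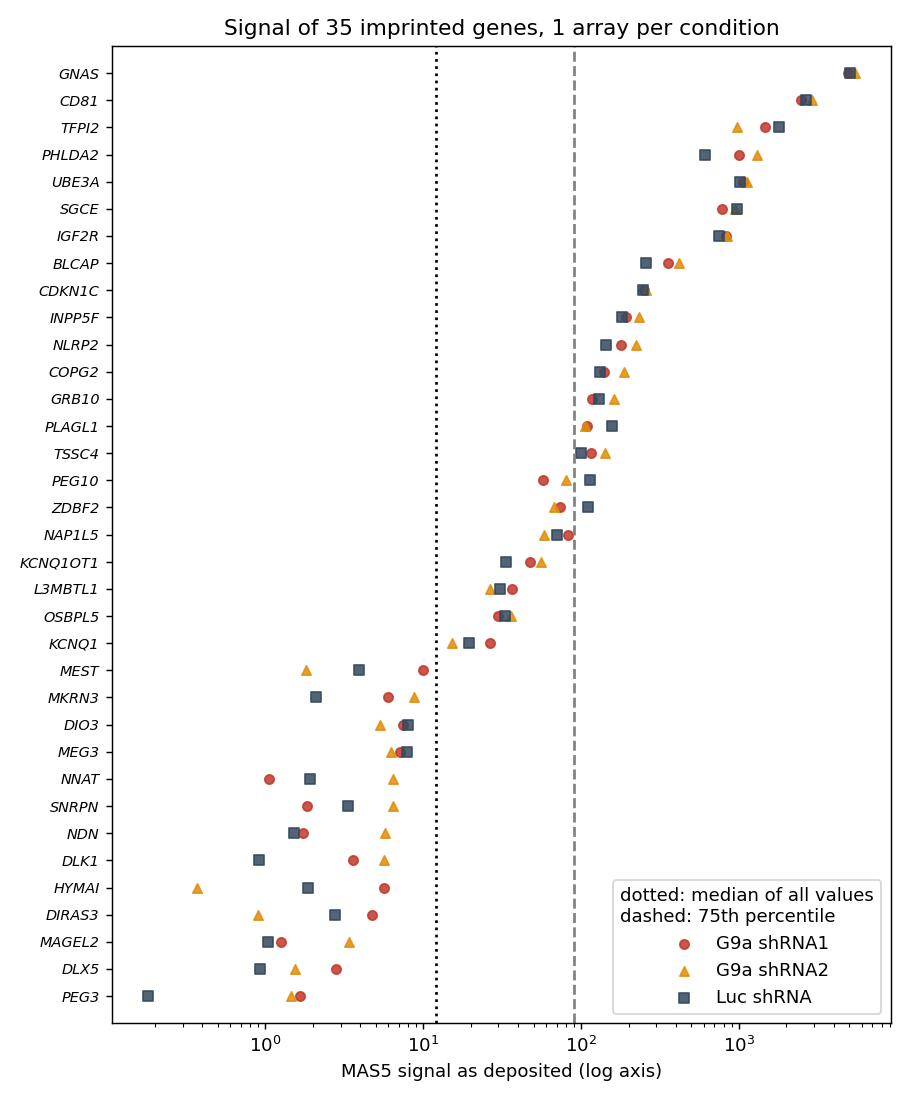
MAS5 signal (log axis) of the 35 imprinted genes with a probe set of their own, on the G9a shRNA1 (circles), G9a shRNA2 (triangles) and Luc shRNA (squares) arrays, 1 array each and 1 row per gene at its brightest probe set. The 13 genes from MEST downwards lie left of the dotted line at 12 on every array, and 17 genes reach the dashed line at 89.7, the 75th percentile.

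The 13 genes that were not detected had signals from 1.05 to 10 with G9a shRNA1 and from 0.372 to 8.74 with G9a shRNA2, against 0.180 to 8.03 with Luc shRNA. They included both ends of the DLK1-DIO3 cluster and the noncoding RNA between them. DLK1, a Notch-family ligand of progenitor cells, had signals of 3.58 and 5.66 with the 2 G9a shRNAs and 0.909 with Luc shRNA. All 10 probe sets of MEG3, a growth-restraining noncoding RNA, stayed under the detection level. DIO3, which inactivates thyroid hormone, read 7.41 and 5.34 with the G9a shRNAs and 8.03 with Luc shRNA. In the Prader-Willi region, the ubiquitin ligase gene MKRN3 read 6.02 and 8.74 against 2.11 with Luc shRNA. MAGEL2 and NDN, both members of the MAGE family that act in neurons, had no signal over 5.70. SNRPN, a splicing factor gene that starts at the imprinting center of that region, could be read from 1 probe set of its own, which was under the detection level. A further 11 SNRPN probe sets are shared with other genes and were not used. No member of the set was under the detection level with Luc shRNA and over it with a G9a shRNA at its brightest probe set. Signals this low carry no readable ratio, and a change within the low range would not have been seen.

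Also undetected on all 3 arrays were PEG3, a zinc finger gene reported as silenced in ovarian cancer, with signals of 1.66 and 1.45 with G9a shRNA1 and G9a shRNA2 and 0.180 with Luc shRNA, and DIRAS3, a Ras-related gene known as an imprinted tumor suppressor of the ovary, with 4.77 and 0.906 against 2.75. NNAT, a membrane protein of developing neurons, read 1.05 and 6.47 with the G9a shRNAs and 1.93 with Luc shRNA. HYMAI, the noncoding RNA beside PLAGL1, read 5.62 and 0.372 against 1.87. DLX5, a homeobox gene of bone and placenta, read 2.79 and 1.54 against 0.932. MEST, a hydrolase-like gene of the mesoderm, came closest to the detection level, with 10 on the G9a shRNA1 array, 1.81 with G9a shRNA2 and 3.90 with Luc shRNA. The detected gene closest to the same level was KCNQ1, whose highest signal was 26.6.

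Among the 22 detected genes, none was more than 2-fold higher and none was more than 2-fold lower with both G9a shRNAs. Over all 13192 detected genes, 2.57% were past 2-fold higher with both and 1.66% were past 2-fold lower. When 1 shRNA past 2-fold was enough, provided that both ratios had the same sign, 1 imprinted gene was higher, PHLDA2, and none was lower, whereas 5.26% of all detected genes were higher and 5.59% were lower. The imprinted genes lay above Luc shRNA on both arrays in 10 cases (45.5%) and below it on both in 5 (22.7%). The remaining 7 lay on opposite sides. Of all detected genes, 44.0% lay above on both arrays and 30.8% below. The median of the mean log2 ratio was 0.05 for the imprinted genes and 0.05 for all detected genes. The ratios to Luc shRNA rest on 1 control array for both shRNAs, so 2 ratios on the same side are not independent of each other.

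The 17 imprinted genes that reached the 75th percentile were past 2-fold with both shRNAs in no case, and over the 8348 genes of that level 0.611% were higher and 0.467% lower by this rule. Above Luc shRNA on both arrays were 9 of the 17, against 46.9% of genes at that level, and below it were 5, against 28.9%. Among those below, PEG10 and ZDBF2 reached that level only on the Luc shRNA array, so that their lower side in this count was set by the filter. The log2 difference between the G9a shRNA1 and G9a shRNA2 arrays had a central 95% range of -0.66 to 0.32 over genes at that level. For genes between the median and the 75th percentile the range was -1.90 to 2.07. These ranges hold differences between the shRNAs as well as measurement error, which cannot be told apart. The 5 dim genes KCNQ1OT1, KCNQ1, OSBPL5, L3MBTL1 and NAP1L5 fall in the wider range, and their ratios are no larger than it.

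**Figure D2:**
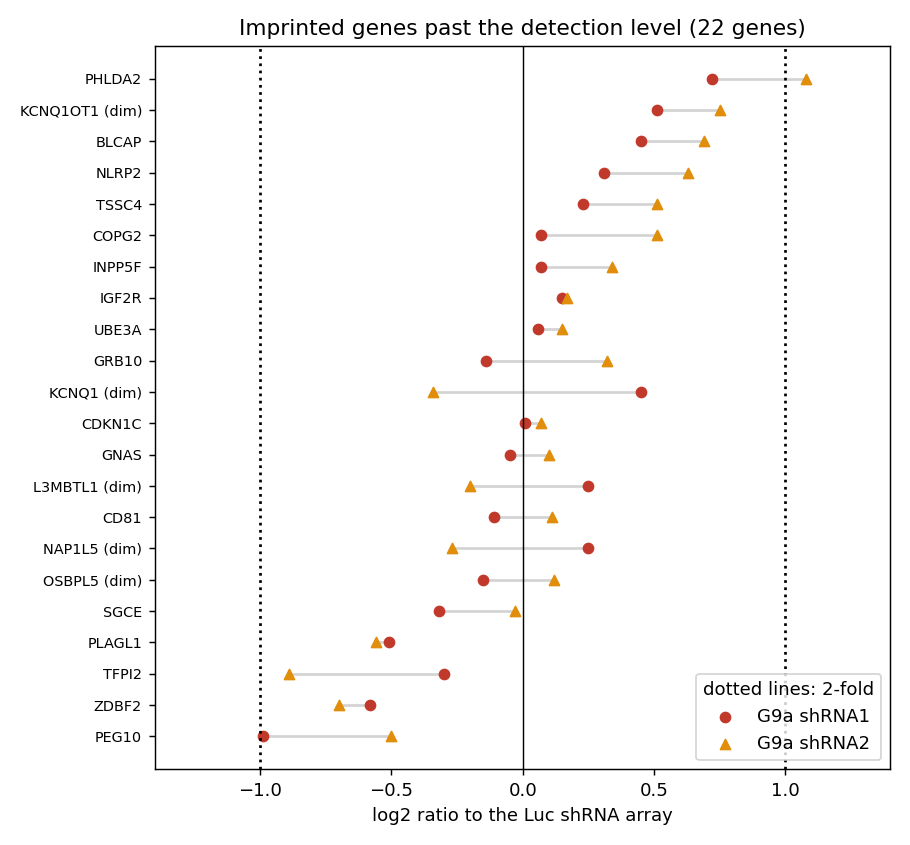
Log2 ratio to the Luc shRNA array (x axis) of the 22 detected imprinted genes, with circles for G9a shRNA1 and triangles for G9a shRNA2, 1 array each, ordered by the mean of both. Dotted lines mark 2-fold; PHLDA2 crosses the line with G9a shRNA2 (1.08), PEG10 comes near it with G9a shRNA1 (-0.99), and 7 genes have their points on opposite sides of 0.

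The KCNQ1 domain held the member furthest above the control. PHLDA2, a pleckstrin homology protein of the maternal copy that restrains placental growth, had a signal of 1007 under G9a shRNA1 and 1295 under G9a shRNA2, against 612 under Luc shRNA. Its log2 ratios were 0.72 and 1.08, and its mean ratio ranked at the 95.5th percentile of all detected genes. Its other probe sets were near the background. With Luc shRNA signals of 3.20 and 15.1, they gave 1.68 and 2.30 at the first and -0.73 and 0.23 at the second. The first passed the detection level only through the G9a shRNA2 array, so that its higher side there was set by the filter. The 2 probe sets therefore do not settle the size and add no support for the direction. After median centring PHLDA2 gave 0.70 and 0.95, and it was then past 2-fold with neither shRNA.

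KCNQ1OT1, the antisense RNA of the paternal copy that silences this domain in cis, was dim and lay above the control on both arrays at its brightest probe set. There its signal was 47.4 with G9a shRNA1 and 55.9 with G9a shRNA2, against 33.3 with Luc shRNA. The log2 ratios were 0.51 and 0.75. A further 2 probe sets had Luc shRNA signals of 9.88 and 5.86, under the detection level, and passed it only through the G9a shRNA arrays, so that their higher side was set by the filter and adds no support. The last 2 KCNQ1OT1 probe sets were not detected on any array. With every one of its probe sets averaged, the ratios were 0.55 and 0.14.

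The maternally expressed genes of the domain did not share a direction. CDKN1C, the cyclin-dependent kinase inhibitor p57, had signals of 249 under G9a shRNA1 and 259 under G9a shRNA2, against 247 under Luc shRNA, log2 ratios of 0.01 and 0.07 that turned to -0.01 and -0.07 after median centring. Of its 4 detected probe sets 3 lay above the control on both arrays, by at most 0.58. KCNQ1, a potassium channel subunit, had signals of 26.6 and 15.3 with the G9a shRNAs and 19.4 with Luc shRNA, ratios of 0.45 and -0.34. Its second probe set gave -1.17 and 0.31, on the opposite side with each shRNA. At the edges of the domain, OSBPL5, a lipid transfer protein, gave -0.15 and 0.12. TSSC4, a spliceosome assembly factor, had signals of 116 and 142 with the G9a shRNAs and 99.4 with Luc shRNA, ratios of 0.23 and 0.51. CD81, a tetraspanin, had signals of 2471 and 2881 against 2666, ratios of -0.11 and 0.11.

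Genes that lie between or beside these members were read for comparison. NAP1L4, a histone chaperone, gave 0.11 and 0.57, and CARS1, the cysteinyl-tRNA synthetase, gave 0.14 and 0.38. SLC67A1, a transporter also known as SLC22A18, gave -0.41 and 0.76. KCNQ1DN was not detected. PHLDA2 was thus the single gene of the stretch past 2-fold with either shRNA.

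**Figure D3:**
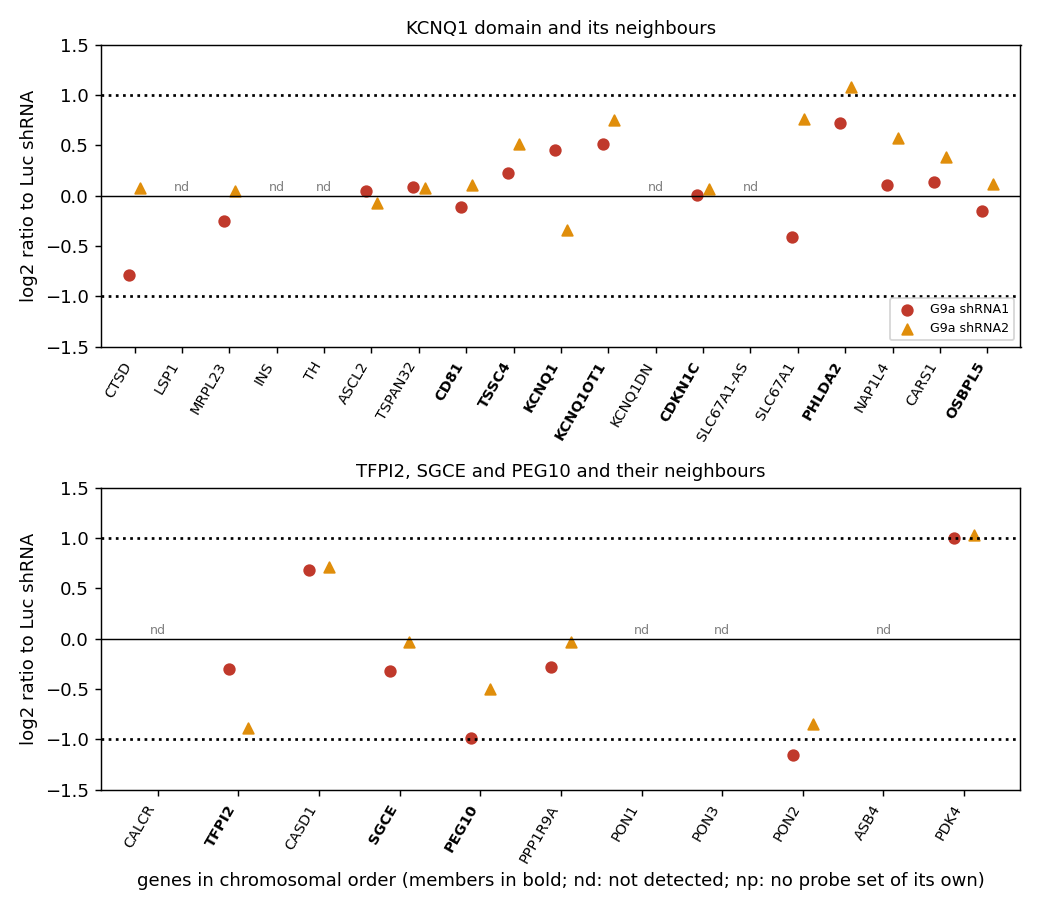
Log2 ratio to the Luc shRNA array (y axis), as circles for G9a shRNA1 and triangles for G9a shRNA2. Members of the set (bold) and further imprinted or neighbouring genes are placed in chromosomal order with equal spacing. The KCNQ1 domain is at the top and the stretch with TFPI2, SGCE and PEG10 at the bottom. Dotted lines mark 2-fold; PHLDA2 stands highest in the top panel, and in the bottom panel TFPI2, SGCE, PEG10, PPP1R9A and PON2 lie below 0 while CASD1 and PDK4 lie above it.

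In the second cluster, all 3 members of the set lay below the control on both arrays. PEG10, a retrotransposon-derived gene of the paternal copy that is needed for the placenta, was the member furthest below. It had a signal of 57.2 under G9a shRNA1 and 80.4 under G9a shRNA2, against 114 under Luc shRNA, log2 ratios of -0.99 and -0.50. A dimmer PEG10 probe set gave -0.49 and 0.55, which differs in direction with G9a shRNA2. SGCE, the ε-sarcoglycan gene that is read away from PEG10 on the opposite strand, had signals of 776 and 945 with the G9a shRNAs and 967 with Luc shRNA, ratios of -0.32 and -0.03. TFPI2, an inhibitor of matrix-degrading proteases, had a signal of 1468 under G9a shRNA1 and 973 under G9a shRNA2, against 1804 under Luc shRNA, ratios of -0.30 and -0.89. A second bright TFPI2 probe set gave 0.07 and -0.74, so the lower signal with G9a shRNA2 was present at both and that with G9a shRNA1 at 1. PEG10 was lowest with G9a shRNA1 and TFPI2 with G9a shRNA2.

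Other genes of this stretch, from a list of further imprinted or neighbouring genes, went both ways. PON2, an antioxidant lactonase of membranes, had signals of 329 and 405 with the G9a shRNAs and 730.0 with Luc shRNA, ratios of -1.15 and -0.85. PDK4, which inhibits pyruvate dehydrogenase, had signals of 217 and 222 against 109, a ratio of 1.03 with G9a shRNA2 and one just under 1 with G9a shRNA1. CASD1, a sialic acid acetyltransferase that lies between TFPI2 and SGCE, gave 0.68 and 0.71. PPP1R9A gave -0.28 and -0.03. CALCR, PON1, PON3 and ASB4 were not detected. The stretch as a whole therefore had no common direction.

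PLAGL1, a zinc finger transcription factor of the paternal copy that restrains growth, was lower than the control at each of its 3 probe sets with both shRNAs. At the brightest it had signals of 109.6 under G9a shRNA1 and 106 under G9a shRNA2, against 156 under Luc shRNA. The log2 ratios were -0.51 and -0.56 there, -0.63 and -0.72 at the next, and -0.39 and -0.77 at the dimmest. All 3 reached the 75th percentile, the dimmest, with signals of 73.3 and 56.2 against 95.9, only on the Luc shRNA array. Its place at that level was therefore set by the side on which it is high. The 3 probe sets were read on the same arrays, so their agreement is not independent. No other detected imprinted gene had more than 1 detected probe set with all of them below the control on both arrays. ZDBF2, a zinc finger gene of the paternal copy, had signals of 73.4 and 67.7 with the G9a shRNAs and 110.0 with Luc shRNA, ratios of -0.58 and -0.70 from its single probe set. At the brightest probe set of each gene, the 2 G9a shRNA arrays differed from each other by much less than either differed from the control. The difference was 0.05 for PLAGL1 and 0.12 for ZDBF2 on the log2 scale. At the dimmest PLAGL1 probe set, with -0.39 and -0.77, the 2 arrays were less even. Both kept their side under median centring, quantile normalization and averaging over probe sets. Neither was past 2-fold.

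The 120 bases before the annotated start of PLAGL1 (chr6:144064600-144064719, minus strand) and of ZDBF2 (chr2:206274543-206274662, plus strand) are shown. These were the members with the most even lower signal at their brightest probe set. They are RefSeq promoter sequence of build GRCh38.p14, 5′ to 3′ on the gene's strand, with CpG dinucleotides, the sites that can be methylated, in capitals. The PLAGL1 stretch has 13 of them and the ZDBF2 stretch has 9. Which start these cells use was not measured.
PLAGL1: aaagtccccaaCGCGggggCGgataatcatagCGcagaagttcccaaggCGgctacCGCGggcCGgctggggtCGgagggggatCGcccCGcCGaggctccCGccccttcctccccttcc
ZDBF2: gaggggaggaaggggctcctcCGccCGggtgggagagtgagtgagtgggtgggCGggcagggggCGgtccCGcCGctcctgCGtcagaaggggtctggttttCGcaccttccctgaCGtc

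Several genes outside the clusters lay above the control by less than 2-fold. BLCAP, a small membrane protein gene that encloses NNAT, had signals of 353 and 419.6 with the G9a shRNAs and 259 with Luc shRNA, log2 ratios of 0.45 and 0.69. The host gene was thus expressed and higher on both G9a shRNA arrays while the paternal NNAT gene inside it was not detected. CTNNBL1, a spliceosome-associated neighbour, gave 0.65 and 0.51. NLRP2, a maternal-effect gene of the NOD-like receptor family, had signals of 179 and 223 with the G9a shRNAs and 144 with Luc shRNA, ratios of 0.31 and 0.63. COPG2, a coat protein subunit of Golgi vesicles that overlaps MEST, had signals of 139 and 188 against 132, ratios of 0.07 and 0.51. INPP5F, a phosphoinositide phosphatase, had ratios of 0.07 and 0.34 where it was brightest, and its dim probe sets gave -0.60 and -0.04, and -0.52 and 0.44.

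GNAS, UBE3A and IGF2R, each read by several probe sets, lay near the control at their brightest one. GNAS, which encodes the stimulatory G protein α subunit and several imprinted transcripts, had signals of 4916 under G9a shRNA1 and 5442 under G9a shRNA2, against 5083 under Luc shRNA. Of its 9 detected probe sets 1 was above the control on both arrays, 3 were below on both and 5 were mixed, with ratios from -0.67 to 0.48 with G9a shRNA1 and from -0.47 to 0.59 with G9a shRNA2. UBE3A, the ubiquitin ligase lost in Angelman syndrome, had signals of 1056 and 1126 with the G9a shRNAs and 1012 with Luc shRNA. Its 4 detected probe sets ran from -0.22 to 0.10 with G9a shRNA1 and from -0.12 to 0.21 with G9a shRNA2. IGF2R, the receptor that clears IGF2, had signals of 824 and 838 against 745, ratios of 0.15 and 0.17. The largest ratio of IGF2R, 1.09 with G9a shRNA1, came from a probe set with a Luc shRNA signal of 7.66. This probe set passed the detection level only on the G9a shRNA1 array, so that its higher side there was set by the filter.

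The last detected members lay on opposite sides with the 2 shRNAs at their brightest probe set. GRB10, an adaptor that dampens insulin and IGF1 receptor signaling, had signals of 117 and 161 with the G9a shRNAs and 129 with Luc shRNA, ratios of -0.14 and 0.32. Its dim probe sets gave 0.30 and 0.36, and -0.19 and 0.13. NAP1L5, a nucleosome assembly protein-like gene of the paternal copy, had signals of 83.2 and 58.0 against 70.0, ratios of 0.25 and -0.27. A dimmer NAP1L5 probe set gave 0.57 and 0.14, above the control with both. L3MBTL1, a Polycomb-type chromatin reader of the paternal copy, had signals of 36.5 and 26.6 against 30.6, ratios of 0.25 and -0.20. Of its 4 detected probe sets, 2 lay above the control on both arrays, 1 below and 1 was mixed. The one below, with signals of 11.0 and 10.7 against 15.6, passed the detection level only on the Luc shRNA array. One of those above, with 18.3 and 12.4 against 11.2, passed it only on the G9a shRNA arrays. The sides of both were thus set by the filter and carry no information.

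Grouped by the parental copy that is known to be expressed, the 7 detected paternal genes had a median of the mean log2 ratio of -0.18. Of these 4 lay below the control on both arrays (PEG10, SGCE, PLAGL1 and ZDBF2) and 1 lay above on both (KCNQ1OT1). The 3 detected maternal genes (CDKN1C, KCNQ1 and PHLDA2) had a median of 0.06, with 2 above on both arrays and 1 on opposite sides. The 12 genes of variable or debated allele had a median of 0.13, with 7 above and 1 below, TFPI2. Over all detected genes the median was 0.05, with 44.0% above on both arrays and 30.8% below. No test was made between these groups, and the arrays do not tell the parental copies apart.

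ZFP57 reads the hexamer TGCCGC when it is methylated, and this hexamer was counted on both strands, with overlapping matches counted each, in RefSeq promoter windows of 250 bases before to 50 bases after the start. Of 25 imprinted genes with a window 11 held at least 1 match (44.0%), against 16.7% of all 27305 windows and 25.0% of the 10655 windows of genes detected on these arrays. The imprinted genes also had more CpG, with a median of 26 in a window against 14.0 over all windows, although genes detected on these arrays had the same median. Detected imprinted genes held a match in 6 of 15 windows, and those not detected or without a probe set of their own in 5 of 10. The hexamer holds a CpG of its own. A match is a description of these letters, not a binding site, and control regions of imprinted clusters mostly lie outside these windows. The windows of PLAGL1 and ZDBF2 held no match. The PLAGL1 window lies apart from that of HYMAI, the noncoding RNA beside it, which held 2. Whether the PLAGL1 window belongs to an imprinted start was not tested. The 120 bases before the start are printed for 2 detected genes, GRB10 (chr7:50793454-50793573, minus strand) and NAP1L5 (chr4:88697830-88697949, minus strand), and for 2 that were not detected, HYMAI (chr6:144008260-144008379, minus strand) and NDN (chr15:23687306-23687425, minus strand), with the hexamer or its reverse complement in capitals (build GRCh38.p14).
GRB10: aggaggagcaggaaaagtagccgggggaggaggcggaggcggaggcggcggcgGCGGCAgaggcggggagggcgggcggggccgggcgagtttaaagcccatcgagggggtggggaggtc
NAP1L5: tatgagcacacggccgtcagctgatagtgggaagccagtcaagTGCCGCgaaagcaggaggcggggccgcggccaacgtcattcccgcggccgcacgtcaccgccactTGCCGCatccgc
HYMAI: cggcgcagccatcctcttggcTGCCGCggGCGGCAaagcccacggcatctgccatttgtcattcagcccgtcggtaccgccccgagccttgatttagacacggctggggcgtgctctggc
NDN: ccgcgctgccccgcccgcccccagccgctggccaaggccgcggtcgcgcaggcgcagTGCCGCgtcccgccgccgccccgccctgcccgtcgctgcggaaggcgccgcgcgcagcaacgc

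Most of the factors that maintain imprints were detected. Of 25 such genes 22 had a probe set of their own and 16 were detected, where 66.7% of all genes were. None of the 16 was past 2-fold with either shRNA. Of all detected genes, 5.26% were past 2-fold higher with at least 1 shRNA and 5.59% lower, so few of 16 genes would be called at those shares. The brightest on average was DNMT1, the maintenance methyltransferase, with signals of 865 and 1088 with the G9a shRNAs and 1056 with Luc shRNA, log2 ratios of -0.29 and 0.04. Of the 16, 4 lay above the control on both arrays (25.0%) and 5 below (31.2%), against 44.0% and 30.8% of all detected genes. The values named next were chosen after they were seen. The de novo methyltransferase genes gave -0.89 and -0.09 for DNMT3A and -0.87 and -0.17 for DNMT3B. ZNF445, the imprint reader of somatic cells, had signals of 131 and 127 against 184, ratios of -0.48 and -0.53, and TET1, which oxidizes methylcytosine, gave -0.68 and -0.53, while its relative TET3 gave 0.61 and 0.28. TRIM28, the corepressor that these readers bind, gave 0.23 and 0.60. ZFP57 was not detected. The median of the list was -0.03, against 0.05 over all detected genes.

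Of 59 further imprinted or neighbouring genes, 53 had a probe set of their own and 35 were detected. With at least 1 shRNA past 2-fold and both ratios of the same sign, 3 were higher and 2 were lower, where 5.26% and 5.59% of all detected genes were, so that the counts are near the background and the genes are named as values only. DDC, the aromatic amino acid decarboxylase gene beside GRB10, was past 2-fold with both, at signals of 20.1 and 15.7 with the G9a shRNAs and 5.42 with Luc shRNA, ratios of 1.89 and 1.53 whose side was set by the filter, since the control value was under the detection level. CPA4, a carboxypeptidase gene near MEST, had signals of 135 and 151 against 69.1, ratios of 0.96 and 1.13. ADAM23, an integrin-binding membrane protein gene near ZDBF2, gave -1.37 and -0.23. The others counted were PDK4 and PON2. NPAP1, a gene of the Prader-Willi region, was not counted because its ratios of 3.27 and -0.70 had opposite signs, at signals of 14.7 and 0.942 with the G9a shRNAs and 1.53 with Luc shRNA. The brightest of the list on average was CARS1, described with the KCNQ1 domain. The median of the list was -0.01.

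Since IGF2 had no value and its receptor IGF2R changed little, the rest of the IGF axis was read as well. Of 20 genes 16 were detected, 10 of them (62.5%) below the control on both arrays, against 30.8% of all detected genes, with a median of the mean log2 ratio of -0.38. The list was chosen with earlier results of these data known, so this share describes the list only and no test was made of it. IGFBP3, the main carrier of IGFs in serum, had a signal of 479 under G9a shRNA1 and 809 under G9a shRNA2, against 2265 under Luc shRNA, ratios of -2.24 and -1.48. STC1, a stanniocalcin that inhibits the IGFBP protease PAPPA, gave -2.55 and -1.28. STC2, its relative, had signals of 17.4 and 22.7 against 7.53, and since the control value was under the detection level, its higher side was set by the filter. IGFBP7, the brightest gene of the list on average, had signals of 1032 and 1568 with the G9a shRNAs and 2035 with Luc shRNA, ratios of -0.98 and -0.38. IGF1R, the receptor that IGF2 acts through, gave -0.23 and 0.13. IGFBP3 and STC1 lay further from the control with each shRNA than any of the 22 detected imprinted genes did at its brightest probe set.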

How the data were processed

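SKOV-3 RNA was measured on Affymetrix whole-genome arrays, 1 array for each of G9a shRNA1, G9a shRNA2 and Luc shRNA. The deposited values are MAS5 signal intensity on a linear scale, per the labels; its version, settings and scaling target are not given in the sources used here. The values were used as deposited. Array medians were 12.3, 11.8 and 11.7, and 2% trimmed means 105, 115 and 106, in that order of groups. Of 54675 probe sets, 41097 had 1 gene symbol in the platform annotation, 1801 had several and 11777 had none. Symbols were updated through Entrez IDs of the RefSeq gene table, in which the IDs of 54 of the single-gene probe sets were not found. Where a gene had several probe sets, the one brightest on average (mean log2 signal) was read.

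Members and lists were chosen with earlier results of these data known. Named are all 37 members, EHMT2, and, from 3 lists (imprint maintenance, further imprinted or neighbouring genes, IGF axis), genes past 2-fold with both shRNAs and the brightest gene on average, with others singled out after their values were seen. Marker lists covered ovarian epithelium, leukocytes, endothelium, placenta and germ cells, neurons and hepatocytes. Of the endothelial markers 1 of 3 was detected (PECAM1, 29.9 and 28.5 with the G9a shRNAs against 15.4 with Luc shRNA) and of the neuronal markers 2 of 3 (SYP and SNAP25, at most 18.0). Gene order and promoters came from RefSeq (GRCh38.p14), with neighbours taken within 2 Mb and 25 of 37 members having a promoter entry. The code was tested on simulated data. Python 3.11.15, numpy 2.4.6, pandas 2.3.3 and matplotlib 3.10.9 were used. The number of arrays limits the precision.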

Additional observations from a re-analysis of the deposited data

How the results depend on the processing

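Scaling, filter and probe set choice moved the small counts. No imprinted gene was past 2-fold lower with both shRNAs under any alternative. Past 2-fold higher with both, the count was 3 without a filter, which admits all 35 genes, 2 (COPG2 and GRB10) with all probe sets of a gene averaged, undetected ones included, and 1 (PHLDA2) or 0 at thresholds of 1.5-fold or 3-fold. Past 2-fold higher with at least 1 shRNA, it was 7 without a filter, 0 after median centring or quantile normalization, 3 with probe sets averaged, 4 at 1.5-fold, 0 at 3-fold, and, alternatives added after the data were seen, 0 with the G9a shRNA1 array alone and 1 with G9a shRNA2 alone. Past 2-fold lower with at least 1, it was 2 after median centring (PEG10, -1.01 and -0.64, and TFPI2, -0.32 and -1.02), 1 after quantile normalization (PEG10) and 3 at 1.5-fold. The median of the mean log2 ratio was 0.09 without a filter, 0.09 over the 17 bright genes, -0.03 after median centring, 0.00 after quantile normalization, -0.06 with probe sets averaged and 0.12 with G9a shRNA2 alone. Both scalings shift the ratios with G9a shRNA2, for all detected genes from a median of 0.12 to -0.01 after median centring and 0.01 after quantile normalization, and split the 22 members as 9 and 10 above against 9 and 6 below Luc shRNA on both arrays. One PHLDA2 probe set near the background turned its mean ratio to -0.25. The causes of these shifts beyond the construction of each alternative were not tested. No paired analysis was possible because each condition has 1 array.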
